A study of Drosophila melanogaster with 6 samples.

Results

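Ion pumps and cation exchangers keep sodium, potassium, calcium and chloride unevenly spread across membranes. The genes described here are 10 members of these families in *Drosophila melanogaster*, taken by FlyBase symbol. They are the sodium pump subunit genes *Atpalpha*, *nrv1*, *nrv2* and *nrv3*, the calcium pump genes *SERCA* and *PMCA*, the sodium/calcium exchanger genes *Calx* and *Nckx30C*, and the chloride cotransporter genes *Ncc69* and *kcc*. They make up 10 of the 17558 genes in the deposited count table, and all 10 were among the 10378 genes with enough reads to be tested.

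The samples were RNA-seq libraries from males of the genotype *Rh1-Gal4 > KASH-GFP*, aged to day 10 after eclosion in 12 h of light and 12 h of dark at 25 °C. The 3 post-isolation samples held nuclear RNA from nuclei that a GFP antibody had bound in head homogenate and that were washed at 300 mM NaCl. The 3 pre-isolation samples held total RNA of the head homogenate itself. The labels mark the 2 groups as paired biological replicates. Both groups carried the same alleles, namely the UAS-GFP-Msp300KASH insertion at attP2 and the rh1-GAL4 driver with ry[506] in a w background, so no allele differed between them. Each sample pooled the heads of many males. The driver labels the nuclei of the outer photoreceptors R1 to R6 and is also active in the antennae, so the post-isolation samples model tagged nuclei of whole heads rather than a dissected retina, which is the tissue their labels name. The groups differed in both the cells and the cell compartment that gave the RNA, and these cannot be told apart in any of the values below. In bulk RNA, fewer cells of a type and less RNA per cell cannot be told apart either.

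The sodium pump is an enzyme of the plasma membrane that spends ATP to carry sodium out of the cell and potassium in, with a catalytic alpha subunit and a glycosylated beta subunit. Calcium is cleared from the cytoplasm by ATP-driven pumps, of which *SERCA* fills the endoplasmic reticulum and *PMCA* exports across the plasma membrane, and by exchangers that use the sodium gradient. In fly photoreceptors, light opens TRP and TRPL channels that let in calcium and sodium, and the exchanger *Calx* removes calcium that enters in this way. Cation-chloride cotransporters set the chloride level of the cell, and the kinases Wnk and Fray act on them.

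The reads assigned to genes numbered 11693481 to 14522962 in a post-isolation sample, against 9999540 to 11232033 in a pre-isolation sample. Alignments left out because the read mapped to more than 1 place made up 86.0% to 88.7% of the post-isolation records and 91.1% to 91.7% of the pre-isolation records. All 12 photoreceptor marker genes were higher in post-isolation samples by the test against no change, beside 24.4% of all genes tested. Past 2-fold, 10 of them were higher, beside 7.29% of all genes, and *ninaE* and *Arr2* were not. These markers were chosen with earlier results of these data known. Their summed level was 129752 to 182943 CPM (each count over its library total, scaled by TMM factors) in post-isolation samples and 53800 to 55884 CPM in pre-isolation samples. Of these, *ninaE*, which encodes Rhodopsin 1, had 52354 ± 4230 against 28821 ± 1365 CPM (SD, n = 3 each, as for every ± value below that is not marked SE), and *Arr2*, an arrestin, had 15743 ± 2893 against 7892 ± 165 CPM. Post-isolation replicate 3 stood apart from the other post-isolation samples. Its photoreceptor markers summed to 129752 CPM, the lowest of its group, and its 7 counted glial markers summed to 1294 CPM, against 901 and 959 CPM in replicates 2 and 1 and 1972 to 2100 CPM in the pre-isolation samples.

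The pump and transporter genes were, on the whole, more abundant in the tagged nuclei. All 10 together took 18872, 17833 and 15486 CPM in post-isolation replicates 1, 2 and 3, against 9934, 9723 and 9950 CPM in the pre-isolation replicates, a ratio of 1.76 between the group means. *Atpalpha* alone supplied more of these reads than the other 9 genes together in every sample. Against a fold change of 2 (edgeR's glmTreat, Benjamini-Hochberg over all 10378 genes, FDR below 0.05), *Calx*, *Ncc69* and *PMCA* were higher in post-isolation samples, which is 3 of 10 genes beside 7.29% of all genes tested. Of the 10, 0 were lower past 2-fold, at an unadjusted p below 0.05 and with DESeq2 as well, beside 4.89% of all genes. By the quasi-likelihood F test against no change in edgeR, 6 of the 10 were higher, beside 24.4% of all genes, and 2 were lower, beside 26.1%. All post-isolation values lay above all pre-isolation values for 7 of the 10, beside 28.0% of all genes, and below them for 2 of the 10, beside 30.1%. The median log2 fold change was 0.76 over the 10 genes and -0.07 over all genes tested.

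**Figure D1:**
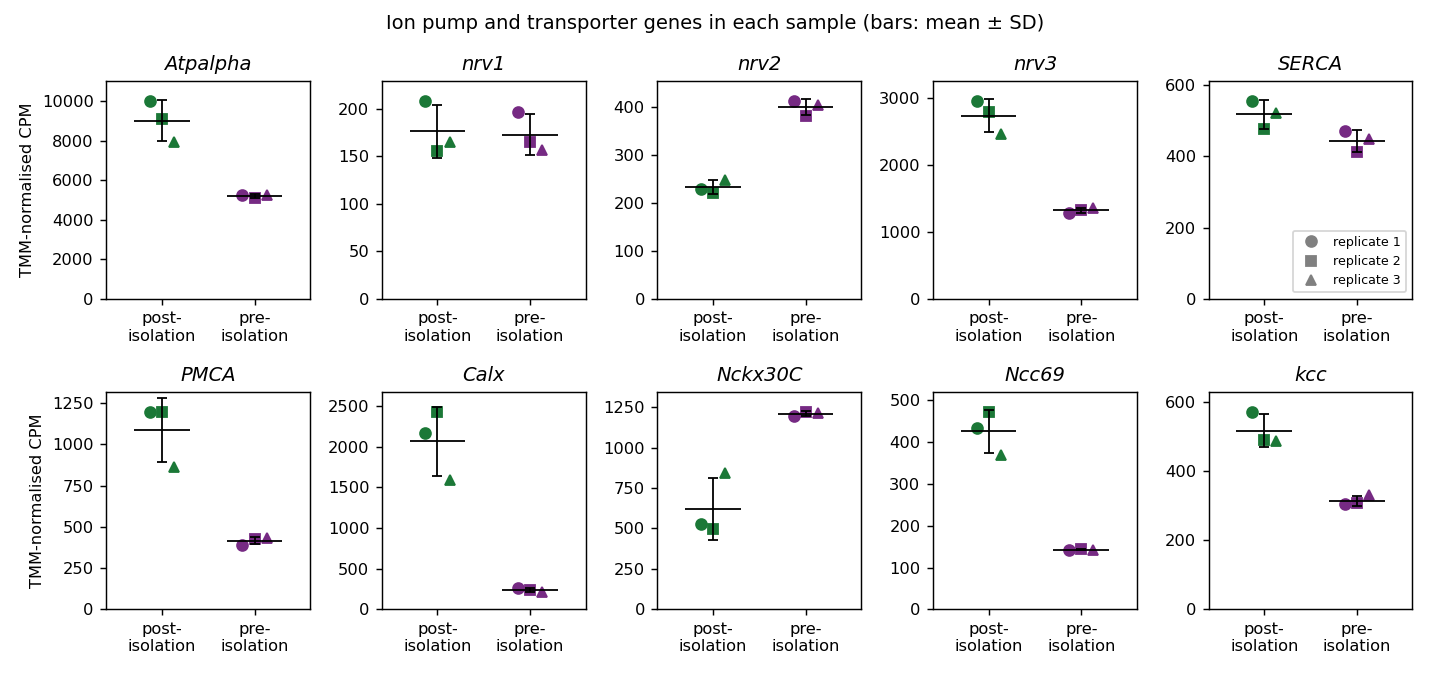
TMM-normalised CPM (y axis, from 0, a separate scale in each panel) of the 10 genes in post-isolation (left, green) and pre-isolation (right, purple) samples. Circles, squares and triangles are replicates 1, 2 and 3, and the line and bar are the mean and SD of 3 samples. The groups overlap for *nrv1* (156 to 209 against 157 to 197 CPM) and are separate for the other 9 genes.

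The number of genes past 2-fold depended on the TMM scaling, whose factors were 0.802 to 0.938 in post-isolation and 1.16 to 1.17 in pre-isolation samples. With library size alone, the genes past 2-fold were 451 higher and 1253 lower in place of 757 higher and 508 lower, and the median log2 fold change of all genes was -0.51 in place of -0.07. *Calx* was then the only one of the 10 past 2-fold. Against no change, the 6 genes called higher and the 2 called lower with TMM kept their direction and their call, while *nrv1* and *SERCA*, called in neither direction with TMM, turned sign and *nrv1* was called lower. A change of scaling multiplies all genes of a sample by the same factor. Distances to the median gene thus stay nearly the same by construction, and are no check of the 2-fold calls. *Calx* was 3.18 above the median gene on the log2 scale with TMM and 3.17 above it with library size alone, *Ncc69* 1.64 and 1.63, *PMCA* 1.45 and 1.44, and *Nckx30C* -0.90 and -0.87.

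**Figure D2:**
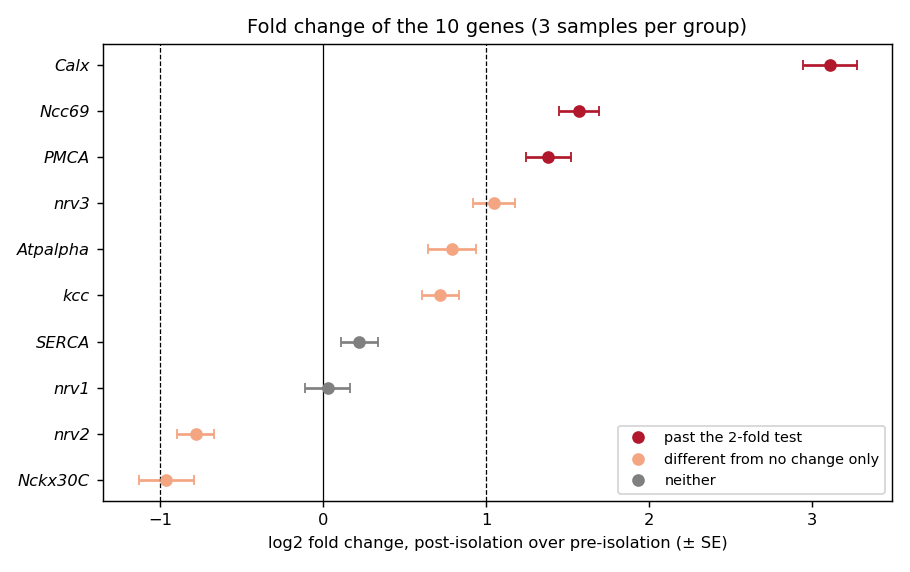
Log2 fold change of each gene, post-isolation over pre-isolation (x axis), with its SE from edgeR, ordered from highest to lowest. Dashed lines mark 2-fold either way. *Calx* (3.11), *Ncc69* (1.57) and *PMCA* (1.38) passed the 2-fold test, and *Nckx30C* (-0.96) and *nrv2* (-0.78) differed from no change on the lower side.

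The catalytic subunit of the sodium pump was the most abundant of the 10 genes in both groups and was higher in the tagged nuclei. *Atpalpha* (FBgn0002921, chromosome 3R, 20948714 to 20976239, plus strand, 15 exonic blocks, BDGP6) had 10023, 9112 and 7930.0 CPM in post-isolation replicates 1, 2 and 3, against 5275, 5107 and 5246 CPM in pre-isolation replicates. The groups did not overlap, and all 3 tagged samples were the higher. The log2 fold change was 0.79 ± 0.15 (SE), a fold of 1.73. It differed from no change (edgeR adjusted p = 0.000413) and did not pass the 2-fold test (adjusted p = 1.00). In pre-isolation samples *Atpalpha* ranked above 99.92% of all genes tested by CPM, so it was among the most abundant head transcripts before any isolation.

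The 3 beta-subunit genes went separate ways. *nrv3* (FBgn0032946, 2L, 21380000 to 21393319, plus strand), a beta subunit of the nervous system, had 2956, 2782 and 2465 CPM in post-isolation samples, against 1282, 1319.9 and 1361 CPM in pre-isolation samples. Its groups were far apart, with the lowest post-isolation sample well above the highest pre-isolation sample. The fold was 2.07 (log2 1.05 ± 0.13 SE). It differed from no change (edgeR adjusted p = 6.94e-06) but did not pass the 2-fold test (adjusted p = 0.589), and without post-isolation replicate 3 it passed the 2-fold test as well (log2 1.17, adjusted p = 0.0266).

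*nrv2* (FBgn0015777, 2L, 6789770 to 6798862, minus strand) encodes a beta subunit found in glia and in epithelia, where it is part of septate junctions. It had 229.9, 220.2 and 249 CPM in post-isolation samples, against 414, 382 and 405 CPM in pre-isolation samples. Every post-isolation sample was below every pre-isolation sample. The gene fell to a fold of 0.582 (log2 -0.78 ± 0.11 SE, edgeR adjusted p = 3.78e-05 against no change and 1.00 against 2-fold). Of the 7 glial markers tested, 6 were lower by the test against no change, beside 26.1% of all genes. Past 2-fold, 0 were lower in edgeR, at an unadjusted p below 0.05 or in DESeq2, beside 4.89% of all genes in edgeR. *Gs2*, glutamine synthetase, had 559 ± 99.4 in post-isolation against 1223 ± 60.0 CPM in pre-isolation samples, and *Eaat1*, a glutamate transporter, had 159 ± 31.8 against 274 ± 12.3 CPM. Their part in the *nrv2* difference was not tested.

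*nrv1* (FBgn0015776, 2L, 6778555 to 6786861, minus strand) encodes the remaining beta subunit and lies 2908 bp from *nrv2* on the same strand. It had 209, 156 and 165 CPM in post-isolation samples, against 197, 165 and 157 CPM in pre-isolation samples. The groups overlapped, and replicate 1 was the highest in both. The log2 difference was 0.029 ± 0.14 (SE, edgeR adjusted p = 0.88 against no change), and the 95% interval of its fold ran between 0.831 and 1.25. Its sign turned with the scaling, being -0.42 with library size alone (adjusted p = 0.0198), and also turned when post-isolation replicate 1 (-0.098) or pre-isolation replicate 2 (-0.0088) or 3 (-0.042) was left out.

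Read per kilobase of merged exon, so that genes of unequal length can be set side by side, the mix of beta subunits shifted toward *nrv3*. Its share of the beta-subunit reads was 79.5%, 81.4% and 78.1% in post-isolation samples, against 56.6%, 60.3% and 60.7% in pre-isolation samples. The share of *nrv2* was 8.27%, 8.62% and 10.5% in post-isolation samples, against 24.4%, 23.3% and 24.1% in pre-isolation samples. The share of *nrv1* was 12.2%, 9.93% and 11.4% in post-isolation samples, against 18.9%, 16.4% and 15.2% in pre-isolation samples. None of the 3 shares overlapped between the groups. As shares sum to a fixed total, they are not independent of each other and were not tested.

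**Figure D3:**
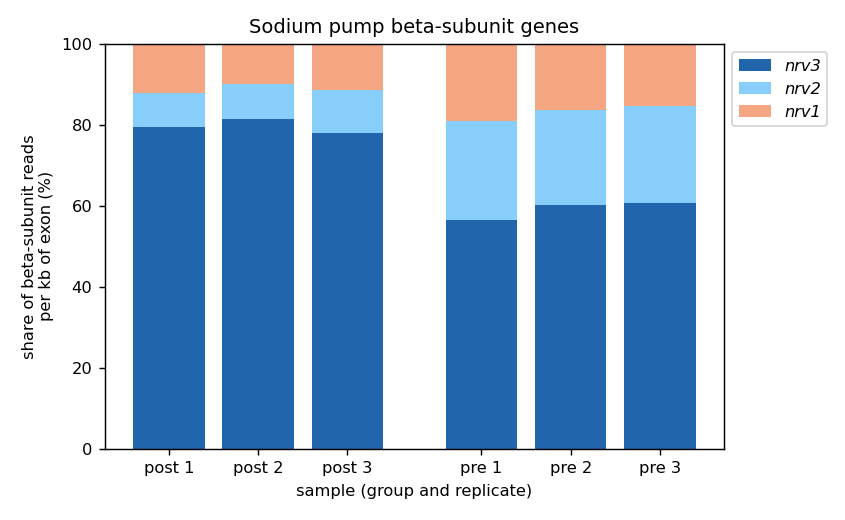
Share of *nrv1*, *nrv2* and *nrv3* in their summed reads per kilobase of exon (y axis, %), 1 bar per sample, post-isolation samples on the left. *nrv3* fills 78.1% to 81.4% of the post-isolation bars and 56.6% to 60.7% of the pre-isolation bars.

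The calcium pump of the plasma membrane was higher in tagged nuclei, while that of the endoplasmic reticulum did not pass either test. *PMCA* (FBgn0259214, chromosome 4, 328193 to 358917, minus strand, 21 exonic blocks) had 1199.9, 1196 and 862 CPM in post-isolation samples, against 391, 427 and 431 CPM in pre-isolation samples. All post-isolation samples lay above the pre-isolation ones, and replicate 3 was the lowest of its group. *PMCA* rose to a fold of 2.61 (log2 1.38 ± 0.14 SE, edgeR adjusted p = 0.017 against 2-fold). This call lay near the threshold. It was lost without post-isolation replicate 1 (log2 1.32, adjusted p = 0.0622) or 2 (log2 1.32, adjusted p = 0.0712), without pre-isolation replicate 1 (log2 1.34, adjusted p = 0.0875) or 2 (log2 1.40, adjusted p = 0.0553), and with library size alone (log2 0.93, adjusted p = 0.967), and over all alternatives in edgeR and DESeq2 the adjusted p ran between 2.82e-07 and 0.967. Against no change it was called under every alternative run (adjusted p at most 9.7e-05). Exons of *Rnf11* on the opposite strand overlap 3107 bp, or 40.5%, of the *PMCA* exon length. The authors counted reads by strand.

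*SERCA* (FBgn0263006, 2R, 23925077 to 23935884, minus strand) had 556, 476 and 522 CPM in post-isolation samples, against 472, 411 and 448 CPM in pre-isolation samples. The lowest post-isolation sample was 476 CPM, just above the highest pre-isolation sample at 472 CPM, and the post-isolation member of each numbered pair was the higher. The log2 difference of 0.22 ± 0.12 (SE) had an adjusted p of 0.124 against no change in edgeR, and the 95% interval of the fold ran between 0.984 and 1.39. The call was sensitive to the fit, as DESeq2 (log2 0.28, adjusted p = 0.0496) and edgeR without post-isolation replicate 3 (log2 0.27, adjusted p = 0.0135) put it past the threshold, while library size alone turned its sign (log2 -0.22, adjusted p = 0.123). Its adjusted p over all alternatives was between 0.0135 and 0.387. Exons of *CG2812* on the other strand overlap 1325 bp of it.

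The exchangers showed the widest contrast among the 10 genes. *Calx* (FBgn0013995, 3R, 20978183 to 21015613, plus strand, 16 exonic blocks) lies 1943 bp downstream of *Atpalpha* on the same strand. It had 2165, 2431 and 1595 CPM in post-isolation samples, against 259.6, 238 and 219 CPM in pre-isolation samples. Even the lowest post-isolation sample, replicate 3, was several times above every pre-isolation sample. *Calx* rose to a fold of 8.64 (log2 3.11 ± 0.16 SE, 95% interval 2.76 to 3.46, edgeR adjusted p = 1.03e-07 against 2-fold), which placed it at rank 147 of the 10378 genes. It passed the 2-fold test under every alternative run, with adjusted p at most 1.72e-05 and log2 fold changes of 2.99 to 3.32 when single samples were left out. The channel gene *trp*, whose product carries the calcium that *Calx* removes, had 22262 ± 4666 against 3101 ± 141 CPM (log2 2.84). The other channel gene, *trpl*, had 14239 ± 2996 against 1413 ± 71.0 CPM (log2 3.33). The 12 photoreceptor markers ran from log2 0.86 for *ninaE* to this value for *trpl*, and a link to *Calx* was not tested.

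*Nckx30C* (FBgn0028704, 2L, 9711512 to 9746495, minus strand) encodes an exchanger that moves potassium together with calcium against sodium. It had 528, 494 and 841 CPM in post-isolation samples, against 1196, 1223 and 1211 CPM in pre-isolation samples. Every post-isolation sample was below every pre-isolation sample, and post-isolation replicate 3 lay between the other 2 post-isolation samples and the pre-isolation group. *Nckx30C* fell to a fold of 0.513 (log2 -0.96 ± 0.17 SE, edgeR adjusted p = 0.000265 against no change). It did not pass the 2-fold test (adjusted p = 0.957) except without post-isolation replicate 3, when its log2 fold change was -1.19 (adjusted p = 0.0212). Summed glial markers also lay higher in replicate 3 than in the other post-isolation samples, as did those of fat body, muscle and hemocytes. Fat body markers summed to 4405 CPM in replicate 3, against 3639 and 2760 CPM in replicates 1 and 2. For hemocyte markers the sums were 666 against 411 and 392 CPM. The part of any of these cell types in the *Nckx30C* values was not tested.

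Summed over both genes, exchanger transcripts were 2693, 2926 and 2437 CPM in post-isolation samples, against 1456, 1461 and 1430 CPM in pre-isolation samples. The summed level was 1.85 times as high in post-isolation as in pre-isolation samples, with *Calx* the larger part of it in the first and *Nckx30C* in the second.

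Both chloride cotransporter genes were higher in tagged nuclei. *Ncc69* (FBgn0036279, 3L, 12368646 to 12391444, minus strand, 20 exonic blocks) encodes a sodium-potassium-chloride cotransporter, which brings chloride into the cell. It had 434, 473 and 369 CPM in post-isolation samples, against 143, 144 and 142 CPM in pre-isolation samples. The pre-isolation samples were almost equal and the post-isolation samples all well above them. *Ncc69* rose to a fold of 2.97 (log2 1.57 ± 0.12 SE, edgeR adjusted p = 0.000511 against 2-fold). Library size alone was the only alternative that ended this call (log2 1.12, adjusted p = 0.199), and the adjusted p over all alternatives was between 4.8e-08 and 0.199.

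*kcc* (FBgn0261794, 2R, 23907654 to 23925066, plus strand, 25 exonic blocks) encodes a potassium-chloride cotransporter, which takes chloride out of the cell. It ends 10 bp from the end of *SERCA*, which runs toward it on the other strand. Its level was 572, 491 and 487 CPM in post-isolation samples, against 304, 306 and 330.2 CPM in pre-isolation samples. The groups did not overlap. The fold was 1.65 (log2 0.72 ± 0.12 SE), different from no change (edgeR adjusted p = 0.000112) but not past 2-fold (adjusted p = 1.00).

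Ratios within a sample do not depend on the scaling between samples, and 5 of them were compared between the groups. *Calx* over *Nckx30C*, in reads per kilobase of exon, was 4.44, 5.33 and 2.05 in post-isolation samples, against 0.235, 0.211 and 0.196 in pre-isolation samples. *Nckx30C* was thus the leading exchanger gene in every head homogenate and *Calx* in every sample of tagged nuclei. On the log2 scale the ratio was 1.87 ± 0.73 against -2.23 ± 0.13, a difference of 4.10. *nrv3* over *nrv2* was 3.13 ± 0.21 in post-isolation and 1.30 ± 0.08 in pre-isolation samples on that scale, a difference of 1.83. *SERCA* over *PMCA* was -1.16 ± 0.31 in post-isolation and -0.018 ± 0.16 in pre-isolation samples, a difference of -1.15, so the endoplasmic reticulum pump had about the level of the plasma membrane pump in head homogenate and less than it in tagged nuclei. For *kcc* over *Ncc69* the log2 ratio was 0.31 ± 0.20 in post-isolation and 1.16 ± 0.07 in pre-isolation samples, a difference of -0.85, with *kcc* the higher of the 2 in all 6 samples.

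The smallest shift was in the balance of the sodium pump itself. *Atpalpha* over the 3 *nrv* genes summed was 1.93, 1.90 and 1.79 in post-isolation samples, against 1.66, 1.66 and 1.67 in pre-isolation samples. The difference was 0.17 on the log2 scale, with the alpha subunit higher relative to the beta subunits in tagged nuclei. For each of the 5 ratios the groups did not overlap, and the two-sided exact permutation test gave p = 0.1 (Benjamini-Hochberg adjusted p = 0.1), which is the smallest it can give with 3 against 3 samples, so none could pass 0.05. Within numbered pairs all 3 differences had the same sign for each ratio, and the exact sign-flip test gave p = 0.25, again the smallest possible.

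**Figure D4:**
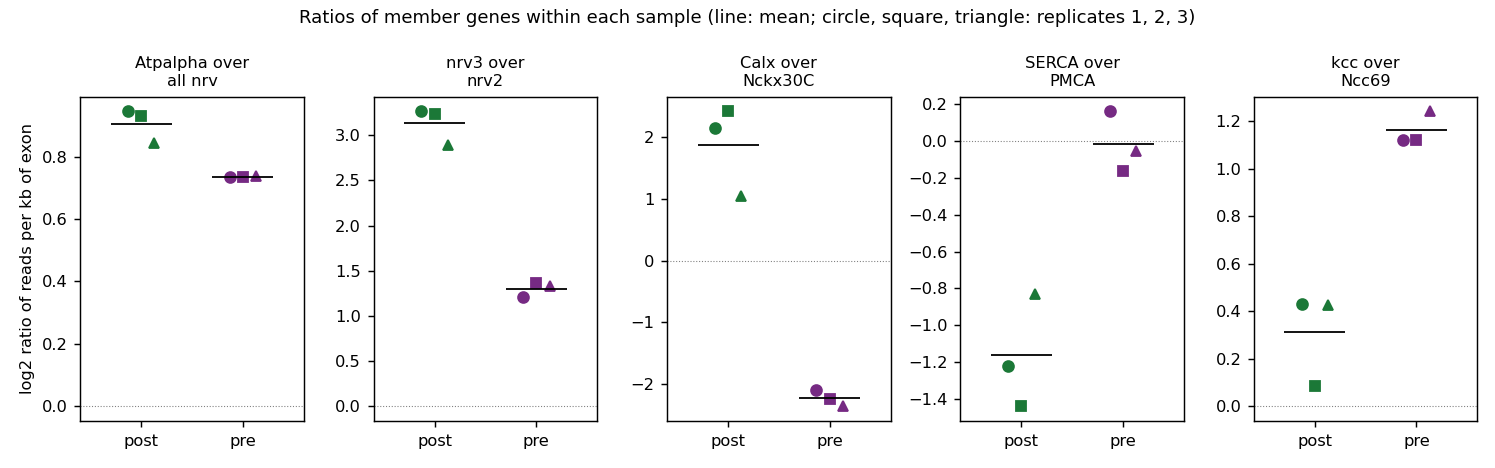
Log2 ratio of reads per kilobase of exon between member genes (y axis, a separate scale in each panel), post-isolation on the left of each panel. Symbols are replicates, the line is the mean of 3 samples, and the dotted line marks equal levels. *Calx* over *Nckx30C* lies above 0 in the 3 post-isolation samples (1.04 to 2.41) and below 0 in the 3 pre-isolation samples (-2.35 to -2.09).

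Ordered by CPM per kilobase of exon, *Atpalpha* and *nrv3* led in both groups and the order below them differed. In post-isolation samples *Atpalpha* had 1351 ± 157, *nrv3* 573 ± 52.2 and *Calx* 230.4 ± 47.7 CPM per kb, and these 3 places were separate in all samples. *PMCA* (142 ± 25.3) and *kcc* (104 ± 9.72) came next and overlapped. *Ncc69* (84.2 ± 10.4) overlapped with *nrv1* (80.5 ± 12.8). *nrv2* (65.3 ± 4.06), *Nckx30C* (64.0 ± 19.7) and *SERCA* (62.7 ± 4.87) closed the order. These last 3 were not separated from each other beyond their spread, while *nrv1* lay just above the highest of *nrv2*.

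In pre-isolation samples *Atpalpha* had 779.8 ± 13.5 and *nrv3* 277 ± 8.25 CPM per kb, and *Nckx30C* (125 ± 1.36) and *nrv2* (112 ± 4.55) followed, each apart from the next. The middle places were held by *nrv1* (78.9 ± 9.67) and *kcc* (63.4 ± 2.90). *PMCA* (54.3 ± 2.85) overlapped with *SERCA* (53.7 ± 3.67), and at the end *Ncc69* (28.3 ± 0.135) overlapped with *Calx* (26.7 ± 2.29). *Calx* thus stood in place 10 in head homogenate and place 3 in tagged nuclei. The spread between the 3 pre-isolation samples was below that between the post-isolation samples for every gene except *nrv2*. In 9 of the 10 genes, *SERCA* being the exception, post-isolation replicate 3 was the post-isolation sample nearest to the pre-isolation mean.

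Other transporters of the same families and neighbouring ones were counted from a list of 30 genes, of which 22 had enough reads. Past 2-fold, 8 of the 22 were higher (7 with DESeq2) and 0 lower (0 also at an unadjusted p below 0.05 and with DESeq2), beside 7.29% and 4.89% of all genes. Against no change 15 were higher and 4 lower by edgeR, beside 24.4% and 26.1% of all genes. Their median log2 fold change was 0.85. The highest was *ClC-a*, a chloride channel gene, with 1318, 1407 and 927 CPM in post-isolation samples, against 135, 126 and 124 CPM in pre-isolation samples (log2 3.25, adjusted p = 7.72e-08). *SPoCk*, a calcium pump of the secretory pathway, had 2165, 1938 and 1505 CPM against 455, 468 and 459 CPM (log2 2.02, adjusted p = 1.06e-05). Of the 3 calcium pump genes, *SPoCk* and *PMCA* thus passed the 2-fold test and *SERCA* did not.

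Sodium exchangers of other kinds were among those past 2-fold. *Nhe3*, a sodium/hydrogen exchanger, had 546 ± 90.3 against 158 ± 8.33 CPM (log2 1.79, edgeR adjusted p = 7.57e-05). *Ndae1*, a sodium-driven anion exchanger, had 704 ± 122 against 265 ± 6.96 CPM (log2 1.41, edgeR adjusted p = 0.01). *CG1090*, of the same family as *Nckx30C*, had 599 ± 69.5 against 222 ± 14.7 CPM (log2 1.43, edgeR adjusted p = 0.00459), opposite in direction to *Nckx30C*. Another gene of that family, *zyd*, was inside 2-fold and lower, like *Nckx30C*. It had 34.4 to 41.3 against 51.3 to 73.4 CPM (log2 -0.64, edgeR adjusted p = 0.00491 against no change). *CG5348*, of the sodium/calcium exchanger family, had only 17.5 ± 3.71 against 4.61 ± 0.982 CPM (log2 1.92, edgeR adjusted p = 0.00858). The lipid flippase genes *ATP8B* (log2 2.22, adjusted p = 3.04e-06) and *ATP8A* (log2 1.26, adjusted p = 0.047, and 0.064 with the replicate block) completed the 8.

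Abundant list members inside 2-fold had smaller differences. *Nhe2*, another sodium/hydrogen exchanger, had 294 to 331 against 239 to 263 CPM (log2 0.32, adjusted p = 0.0269 against no change), and *anne*, a P-type ATPase, had 241 ± 14.6 against 197 ± 12.2 CPM (log2 0.29, adjusted p = 0.0459). *Ae2*, an anion exchanger, was lower at 142 ± 41.5 against 219 ± 19.9 CPM (log2 -0.63, adjusted p = 0.00627). *NKCC*, a sodium-potassium-chloride cotransporter gene like *Ncc69*, overlapped between the groups and was not called. It had 108 ± 28.4 against 89.1 ± 1.04 CPM (log2 0.28, edgeR adjusted p = 0.166 against no change). The 8 untested genes, among them the alpha-subunit gene *JYalpha*, had between 0 and 11 counts in each sample.

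Regulators of these transporters and genes of calcium stores formed a second list of 19 genes, of which 17 were tested. The list stayed near the middle of all genes, with 2 higher and 0 lower past 2-fold in edgeR (1 lower at an unadjusted p below 0.05 and 0 with DESeq2), beside 7.29% and 4.89% of all genes. Against no change 5 were higher and 6 lower, beside 24.4% and 26.1% of all genes, and its median log2 fold change was 0.10. *Cnx99A*, the calnexin that folds Rhodopsin 1, had 1391 ± 415 against 307.7 ± 41.0 CPM (log2 2.18, edgeR adjusted p = 4.83e-05). *Orai*, the store-operated calcium channel of the plasma membrane, had 184 ± 38.4 against 63.8 ± 1.67 CPM (log2 1.53, edgeR adjusted p = 0.00437). *Calr*, the calcium-binding chaperone calreticulin, had 351 ± 28.2 against 276 ± 22.5 CPM (log2 0.34, adjusted p = 0.0238 against no change). *Wnk*, the kinase that acts on cation-chloride cotransporters, had 459.6 ± 27.3 against 309 ± 15.3 CPM (log2 0.57, adjusted p = 0.000606 against no change). *Cam*, which encodes calmodulin, was lower at 1615 ± 176 against 2468 ± 55.9 CPM (log2 -0.61, adjusted p = 0.000973 against no change).

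**Figure D5:**
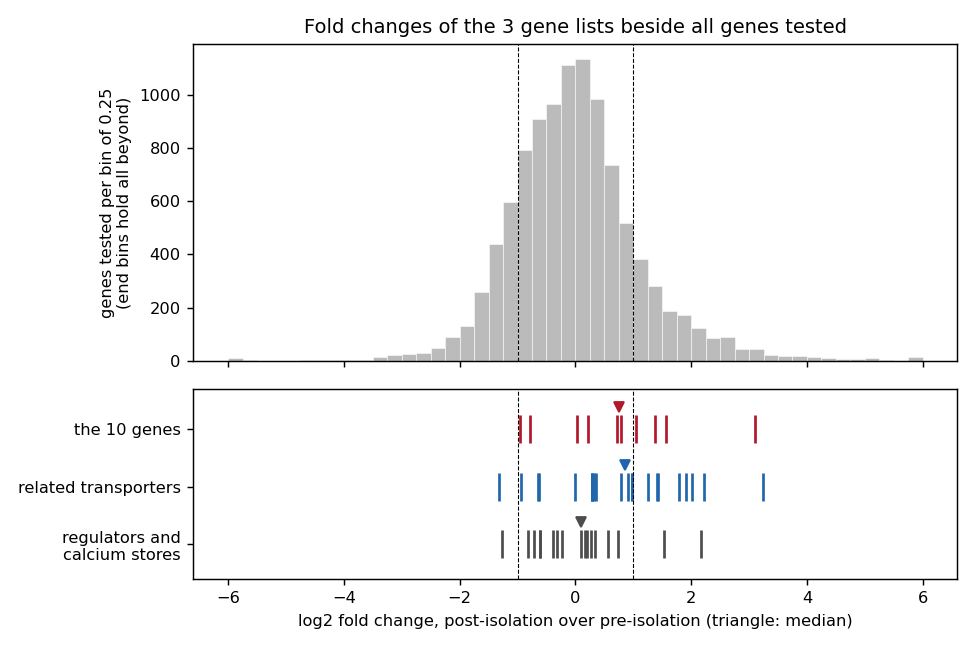
Log2 fold change, post-isolation over pre-isolation (x axis), of all genes tested (upper panel, genes per bin of 0.25, with genes beyond the ends counted in the end bins) and of each tested gene of 3 lists (lower panel, 1 tick per gene, triangle for the median). The medians are 0.76 for the 10 genes, 0.85 for related transporters and 0.10 for regulators and calcium stores, against -0.07 for all genes.

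Genes with a profile like those of *Calx* and *Atpalpha* were taken by Euclidean distance over the 6 samples between log2(CPM + 1) profiles set to their own pre-isolation mean, among 6564 genes with a mean above 10 CPM. This is a description with no test. The 4 nearest to *Calx* were *lqf*, the endocytic adaptor epsin (distance 0.180, log2 fold change 3.04), *ClC-a* (0.246, 3.25), the antisense transcript *asRNA:CR43480* (0.276, 3.27) and *nrm*, a cell adhesion protein gene (0.280, 3.06). *lqf* had 3359 ± 726 against 407 ± 19.0 CPM, so it shared the level as well as the fold of *Calx* more nearly than *asRNA:CR43480*, at 108 ± 27.7 against 11.2 ± 0.817 CPM. In group means *nrm*, at 1676 ± 425 against 201 ± 5.94 CPM, was nearer to *Calx* than *lqf* in both level and fold. The 4 nearest to *Atpalpha* were *Appl*, the amyloid precursor-like gene of neurons (0.0583, 0.76), *Sap-r*, the saposin-related gene (0.0648, 0.79), *CG7378* (0.0862, 0.82) and *CG31998* (0.0911, 0.84). *Appl* had 2460 ± 278 against 1451 ± 9.21 CPM.

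Markers of the other cell types that head homogenate holds gave a mixed picture beside these genes. For all of these lists, the shares over all genes tested were 24.4% higher and 26.1% lower against no change. Past 2-fold they were 7.29% and 4.89%. Pan-neuronal markers summed to 8088 to 10177 CPM in post-isolation and 5790 to 6073 CPM in pre-isolation samples, with 4 of 6 higher and 1 lower against no change. Within them *Syt1*, the synaptic calcium sensor, was called higher at 3179 ± 537 against 1421 ± 68.6 CPM. *nSyb*, a vesicle fusion protein, was not called, at 2058 ± 265 against 1672 ± 74.3 CPM (edgeR adjusted p = 0.0696 against no change). The lower marker was *Rdl*, at 467 ± 137 against 952 ± 57.8 CPM (log2 -1.03, edgeR adjusted p = 0.00013 against no change). Past 2-fold, only *cac* was higher (log2 1.71, edgeR adjusted p = 0.00035) and 0 were lower. Fat body markers summed to 2760 to 4405 against 8529 to 9937 CPM, with 3 of 4 lower, led by *apolpp*, the lipophorin precursor (3488 ± 790 against 8874 ± 684 CPM), and *Lsp2*, a storage protein (73.5 ± 19.8 against 188 ± 50.8 CPM).

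Muscle markers summed to 943 to 1518 against 1195 to 1322 CPM, with 2 of 7 higher and 4 lower against no change, 3 of them lower past 2-fold, and a median log2 of -1.16. The 3 were *up* (log2 -1.65), *Mlc2* (log2 -1.79) and *Mf* (log2 -1.72), which encode sarcomere proteins. The 2 most abundant were not lower, as *sls*, the titin-like gene, had 616 ± 127 against 304 ± 20.9 CPM and *Mhc*, the myosin heavy chain, 305 ± 85.2 against 287 ± 30.3 CPM. Hemocyte markers summed to 392 to 666 against 631 to 688 CPM, with 1 of 4 lower (*Hml* 213 ± 57.8 against 304 ± 12.3 CPM, *Col4a1* 215 to 376 against 323 to 358 CPM). Pigment cell markers summed to 1346 to 1924 against 1795 to 2000.4 CPM, with 2 of 6 higher and 1 lower. *Pdh*, a retinol dehydrogenase, was at 579 ± 43.2 against 1630.3 ± 96.1 CPM and *santa-maria*, a carotenoid receptor, at 74.8 ± 6.36 against 80.8 ± 13.5 CPM, both among the most abundant of the list in head homogenate. The 2 that were higher, both past 2-fold, were *w* (731 ± 261 against 60.2 ± 3.36 CPM, a fold of 12.1), which is also the marker gene of the UAS transgene, and *ninaG* (241 ± 81.1 against 38.2 ± 2.34 CPM, log2 2.66). Mechanosensory and antennal markers were low, at 59.9 to 70.1 against 35.2 to 44.6 CPM in all, with 3 of 5 higher (*rempA* 24.1 ± 1.54 against 17.6 ± 1.07 CPM, *nompA* 18.8 ± 3.02 against 10.1 ± 2.94 CPM). The part of these cell types in the values of the 10 genes was not tested.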

How the data were processed

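RNA was measured in 3 post-isolation and 3 pre-isolation samples. Per the labels and the study's methods, the authors used Trimmomatic for trimming, TopHat with Bowtie 2 for mapping to BDGP6, and HTSeq for the deposited strand-specific counts per gene, which are not normalized. The 2 further deposited tables hold the counts of 5262 filtered genes, equal to the raw ones, and their CPM relative to the filtered totals; all 10 genes are in it, and neither entered the main test. Reads that mapped to more than 1 place and, by HTSeq's defaults, intronic reads were not counted, and unassigned alignments (93.4% to 95.6% of each sample's records) stayed out of library sizes. No value column was left unused.

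Here, a gene was tested if its CPM exceeded 1 in 3 or more of the samples, with library sizes recomputed over them. TMM factors, glmQLFit (edgeR 4.0.16, R 4.3.3), glmTreat against a fold change of 2 and glmQLFTest against no change were fitted to all 10378 genes, and p-values were adjusted by Benjamini-Hochberg with FDR below 0.05 as the threshold. The SE is the log2 fold change over the square root of the F statistic. Positions and exon lengths came from Ensembl release 115 of BDGP6, which held 98.3% of the gene IDs. Within-sample ratios were compared with exact permutation tests. The procedure was tested on simulated counts in which 200 of 10378 genes changed by 2.5 on the log2 scale, either way. It recovered 81% of them past 2-fold, with 0 false calls, and 91% against no change, with 8 false calls. Far fewer genes changed there than in the data, so the simulation does not test the scaling. Precision is limited by 3 samples per group. The 95% intervals are for the fitted log2 fold change, or its fold, from its SE and the t distribution, and not for the spread between samples. The alternatives were a replicate block, RLE factors, library size alone, DESeq2 1.42.0, no filter, at least 10 counts in every sample, the filtered table, a pseudocount of 1 for ratios, leaving out each sample and, added after seeing the data, the legacy fit, and lengths of the longest transcript and left-out samples for the *nrv* shares.

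The main fit has no block, since the methods name none. The labels state that replicate numbers pair the samples, while deviations from the group means correlated at only 0.0079, 0.047 and -0.016 in pairs 1, 2 and 3. The 10 genes, the gene lists and the naming rule (all 10 genes, list genes past 2-fold and the 3 most abundant besides, the 2 most abundant markers per list, the 4 nearest profiles) were chosen with earlier results of these data known. The markers *trp*, *trpl*, *cac*, *Rdl*, *up*, *Mlc2*, *Mf*, *w* and *ninaG* and the list genes *zyd* and *NKCC* are named beyond that rule. They were chosen after their values were seen. Protein, promoter and other sequences were not analysed here.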

Additional observations from a re-analysis of the deposited data

How the results depend on the processing

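*Calx* kept its 2-fold call under every alternative run. With library size alone, 1 of the 10 genes was higher past 2-fold in place of 3, the log2 fold changes of *nrv1* (-0.42, adjusted p = 0.0198 in edgeR) and *SERCA* (-0.22) turned sign, and all genes split 451 higher to 1253 lower past 2-fold and 1394 higher to 4326 lower against no change. In the authors' filtered table, *nrv1* was at -0.023 and 480 genes were higher, a table with fewer genes. DESeq2 called 278 genes lower. Leaving out each sample in turn gave 2 to 4 of the 10 genes higher and 0 to 1 lower past 2-fold, the extremes of 4 and 1 without post-isolation replicate 3, and 6 to 7 higher and 2 lower against no change. *nrv1* then ran between -0.098 and 0.13. Over all genes, 555 to 942 were higher and 345 to 725 lower past 2-fold, the most without post-isolation replicate 3. With the replicate block, 740 genes were higher and 523 lower, *PMCA* had an adjusted p of 0.0225 in edgeR, and the pairing changed no call among the 10 genes. By the longest transcript, *nrv2* made up 11.6% of beta-subunit reads in post-isolation and 29.2% in pre-isolation samples, and *nrv3* 77.8% and 55.5%. The legacy fit called 702 genes higher and 470 lower. Where no cause is given for these changes, the cause was not tested. The planned sequence features were not run. With 3 samples a group, the exact test of a ratio cannot go below 0.1.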
